A study of Mus musculus with 2 samples.

Results

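Imprinted genes are expressed mainly from 1 of the parental chromosomes. Peg3, H19, Meg3, Plagl1, Grb10, Mest, Ndn and Zrsr1 were followed here, which are 8 of the 31054 genes counted. They were listed by symbol, with earlier results of these cells known, and what is given is their level in each sorted library and in 2 cell classes of gonadal white adipose tissue (gWAT). They were thus chosen by their levels in these libraries, which are a description and carry no test. Another 56 genes listed as imprinted, in the same tables, were used for comparison. Whether they are imprinted in these cells was not tested.

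At an imprinted locus, DNA methylation set in the egg or the sperm marks the parental origin of each copy, and in most tissues only the unmarked or the marked copy is transcribed. Many imprinted genes act on fetal growth, on the size of fat depots and on the quiescence of progenitor cells, and several fall sharply after birth. Meg3, H19 and Grb10 (outside the brain) are expressed from the maternal copy. Peg3, Ndn, Mest, Plagl1 and Zrsr1 are expressed from the paternal copy. The 3′ counts used here do not tell the copies apart, so every value is the sum of both alleles.

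Both groups came from the gWAT of 18-month-old male mice of the genotype p16-CreERT2/R26-LSL-tdTomato. In these mice tamoxifen, which was given by intraperitoneal injection before the tissue was taken, lets Cre made under control of the p16 gene remove a stop cassette, so that a cell with p16 activity at that time becomes red and stays so. CD31- CD45- cells were sorted to leave out endothelial and blood cells, though some cells with immune transcripts remained. The tdTomato-positive (Tom+) and tdTomato-negative (Tom-) cells were each made into 1 droplet library. The number of mice pooled per library is not given in the sources used here. A Tom+ cell records past promoter activity, not the level of p16 RNA at the time of sorting. The labels give both libraries the same genotype, and whether they came from the same animals is not given in the sources used here.

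After filtering, 3524 Tom+ and 6717 Tom- cells were kept, which are cells with over 1000 and under 7000 genes and under 8% mitochondrial UMIs. A UMI (unique molecular identifier) marks 1 captured RNA molecule. Cells with at least 10 UMIs of the 5 genes Msln, Upk3b, Krt19, Lrrn4 and Upk1b were called mesothelial, 250 in Tom+ and 1887 in Tom-, and cells with under 5 were called stromal, 3263 in Tom+ and 4800 in Tom-. The classes matched markers that the rule did not use. The sum of 11 further mesothelial genes was 12182 and 12072 UMIs per 1000000 (CPM) in Tom+ and Tom- mesothelial cells and 299.955 and 496 CPM in stromal cells. Pdgfra, a receptor of adipose progenitors, was at 344 and 282 CPM in stromal and 41.9 and 51.4 CPM in mesothelial cells. The sum of the 9 stromal genes, Pdgfra among them, was 12395 and 9518 CPM in Tom+ and Tom- stromal cells. In mesothelial cells it was still 3841 and 4160 CPM, so stromal transcripts were not absent from that class. Immune transcripts were not absent, and their sum over 6 genes was 1764 and 874 CPM in Tom+ and Tom- stromal cells, mostly Jchain, and 336 and 39.2 CPM in mesothelial cells. tdTomato RNA was at 211 and 13.1 CPM in stromal and at 780.2 and 8.25 CPM in mesothelial cells of Tom+ and Tom-.

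Barcodes were shared between the libraries. Of all barcode sequences, 2224 were listed in both, and among kept cells these made up 14.4% of Tom+ and 4.23% of Tom-. In Tom+ mesothelial cells the share was 40%, that is 100 of 250 cells, so levels, ratios and the Meg3 share of that class are given with and without them. Their part of the UMIs, which set the levels, was larger. Without them 921 of 2334 Meg3 UMIs and 111 of 325 Grb10 UMIs of that class were left. Leaving them out thus also leaves out deeper cells. With 1 library per group there is no test between groups, cells of a library are not replicates, and the sort cannot be told apart from the preparation of the library. Intervals are at 95%, exact Poisson for levels, exact Clopper-Pearson for shares and exact conditional for log2 ratios, and they cover counting error only. They also take UMIs as independent, which is not so where a few cells hold most UMIs of a gene.

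The promoters of 4 members are shown because these genes carry the contrasts below, Meg3, Peg3 and Plagl1 as genes whose level differed between stromal cells and Ndn as one that was even. Each window runs from 250 bases before to 50 bases after a RefSeq start, 5′ to 3′ on the strand of the gene, in GRCm38.p6. They lie at chr12:109540746-109541045 (plus strand), chr7:6730370-6730669 (minus strand), chr10:13090582-13090881 (plus strand) and chr7:62348027-62348326 (plus strand). Capitals mark TGCCGC or its reverse complement GCGGCA, the hexamer that the imprint-protecting zinc finger protein ZFP57 binds when its CpG is methylated.
Meg3: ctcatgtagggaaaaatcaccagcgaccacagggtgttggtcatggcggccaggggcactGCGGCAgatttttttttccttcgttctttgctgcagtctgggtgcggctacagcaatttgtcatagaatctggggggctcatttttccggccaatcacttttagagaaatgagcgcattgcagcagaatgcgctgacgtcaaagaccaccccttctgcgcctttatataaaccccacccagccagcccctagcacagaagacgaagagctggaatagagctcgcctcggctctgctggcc
Peg3: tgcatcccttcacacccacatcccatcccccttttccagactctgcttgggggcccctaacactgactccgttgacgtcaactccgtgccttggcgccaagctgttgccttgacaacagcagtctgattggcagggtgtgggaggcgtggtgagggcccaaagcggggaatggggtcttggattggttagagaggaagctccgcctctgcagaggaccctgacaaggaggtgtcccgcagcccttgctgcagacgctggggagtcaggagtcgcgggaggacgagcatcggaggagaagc
Plagl1: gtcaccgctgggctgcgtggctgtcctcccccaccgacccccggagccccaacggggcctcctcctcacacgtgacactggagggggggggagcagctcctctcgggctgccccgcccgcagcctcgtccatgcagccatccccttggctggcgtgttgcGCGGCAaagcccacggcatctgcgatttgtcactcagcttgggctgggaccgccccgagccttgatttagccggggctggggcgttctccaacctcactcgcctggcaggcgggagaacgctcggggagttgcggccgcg
Ndn: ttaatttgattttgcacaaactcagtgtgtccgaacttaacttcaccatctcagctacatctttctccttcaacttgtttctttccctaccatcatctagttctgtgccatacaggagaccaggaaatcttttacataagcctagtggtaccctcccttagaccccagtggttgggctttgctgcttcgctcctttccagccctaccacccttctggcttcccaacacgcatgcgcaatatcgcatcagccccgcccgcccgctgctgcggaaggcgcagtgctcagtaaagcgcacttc
The hexamer was found 1 time in the Meg3 and Plagl1 windows and not in those of Peg3 and Ndn. Of the windows not shown, 1 of 2 for Grb10 holds it, as do 2 of 3 for Mest, which are nearly the same stretch with starts 3 bases apart, and the second Meg3 window and that of Zrsr1 do not. It occurs in 11.6% of all 32851 promoter windows of this length. The windows hold 13 (Meg3), 13 (Peg3), 26 (Plagl1) and 11 (Ndn) CpG dinucleotides, beside a median of 7 over all windows. In all, 7 members have a window, several of them more than 1. The match is one of letters, and the differentially methylated region of an imprinted gene can lie outside such a window.

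**Figure D1:**
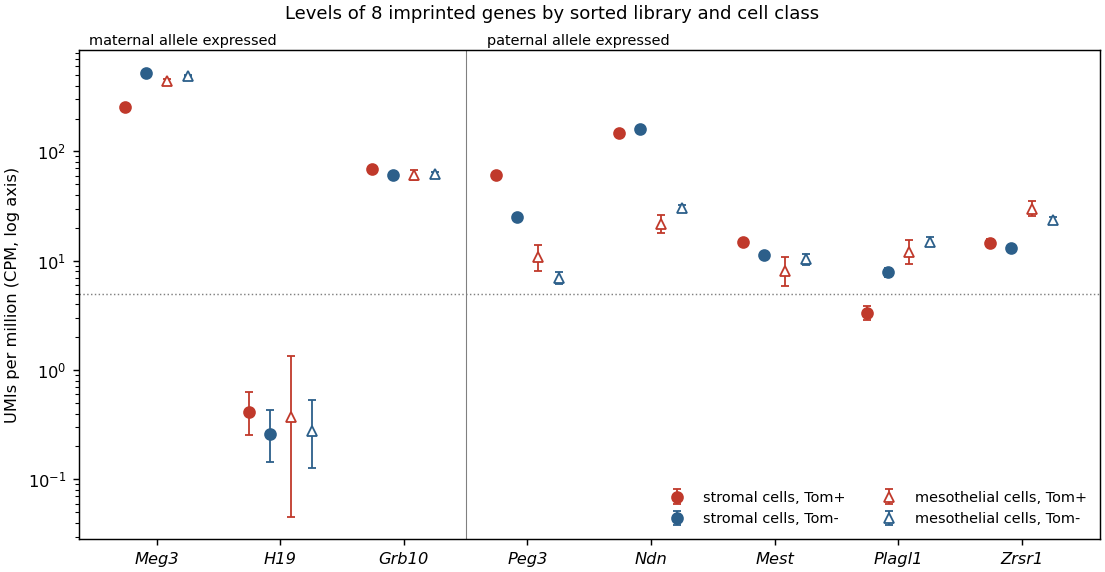
Levels of the 8 genes in CPM on a log axis, with exact Poisson 95% intervals of counting error, for stromal cells (circles) and mesothelial cells (triangles) of the Tom+ (red) and Tom- (blue) libraries. The dotted line is at 5 CPM, below which all 4 H19 values lie, and Ndn and Peg3 are higher in stromal cells of both libraries.

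The 8 genes ranged widely in level. Meg3, a long noncoding RNA of the Dlk1 to Dio3 domain (chromosome 12, 109541001 to 109571726, plus strand, GENCODE vM21 on GRCm38), was the most abundant. It was at 254 CPM (249 to 258) in Tom+ stromal cells, 523 (517 to 529) in Tom- stromal cells, 438 (421 to 457) in Tom+ mesothelial cells and 493 (485 to 501) in Tom- mesothelial cells. The Tom+ stromal value stood apart, below the other three.

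Ndn, the single-exon gene of the MAGE protein necdin (chromosome 7, 62346569 to 62350262, plus strand), which restrains proliferation and adipogenic differentiation, followed in stromal cells. The stromal levels were 147 CPM (144 to 150.3) for Tom+ and 161 CPM (158 to 165) for Tom-, and the mesothelial ones 21.6 CPM (17.8 to 25.9) and 30.5 CPM (28.6 to 32.5). Both stromal values lay far above both mesothelial ones.

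Grb10, an adaptor that dampens insulin and IGF1 receptor signalling (chromosome 11, 11930508 to 12038683, minus strand), was nearly level, at 68.4 CPM (66.1 to 70.7), 61.0 (59.0 to 63.1), 61.1 (54.6 to 68.1) and 62.5 (59.8 to 65.2) in the same order of groups. Peg3, a zinc finger protein (chromosome 7, 6703892 to 6730431, minus strand), had stromal levels of 61.3 CPM (59.2 to 63.5) for Tom+ and 25.3 CPM (24.0 to 26.6) for Tom-. In mesothelial cells it was at 10.7 CPM (8.11 to 13.9) and 6.95 CPM (6.07 to 7.92).

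The remaining genes were low. Mest, a hydrolase-fold protein that rises when fat cells enlarge (chromosome 6, 30723547 to 30748465, plus strand), was at 14.8 and 11.2 CPM in Tom+ and Tom- stromal cells and at 8.08 and 10.3 CPM in mesothelial cells. Zrsr1, a retrogene related to a splicing factor (chromosome 11, 22972005 to 22976496, plus strand), was at 14.6 and 13.04 CPM in stromal and at 29.9 and 23.6 CPM in mesothelial cells. Plagl1, a growth-limiting zinc finger protein (chromosome 10, 13060504 to 13131694, plus strand), was at 3.35 and 7.81 CPM in stromal and at 12.0 and 14.9 CPM in mesothelial cells. H19, a noncoding RNA that is abundant before birth (chromosome 7, 142575529 to 142578143, minus strand), gave 21 and 15 UMIs in the stromal and 2 and 9 UMIs in the mesothelial cells, all under 0.5 CPM.

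Without shared barcodes the Tom+ mesothelial levels were 416 CPM for Meg3, 50.1 for Grb10, 32.5 for Zrsr1, 22.6 for Ndn, 8.12 for Plagl1, 4.96 for Peg3 and 2.26 for Mest. Mest and Peg3 thus lost the largest part of their level, with 5 and 11 UMIs left.

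Some neighbours limit these counts. Zrsr1 lies within Commd1 on the opposite strand and overlaps its exons, and it has a close paralogue, so its reads are the least certain. The 3′ end of Mest overlaps the end of Copg2 on the opposite strand, and Meg3 exons overlap a noncoding gene, Gm26906, in antisense. Ndn lies within a noncoding gene, Gm32061, on the opposite strand, without shared exons. The 3′ kit keeps strand.

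Mesothelial cells were set against stromal cells of the same library first. H19 stayed below the limit of 5 CPM for the mean of a comparison. Of the other 7 members, 2 were at least 2-fold higher and 2 at least 2-fold lower in Tom+ mesothelial cells. Of all 10240 genes at that level, 13.1% were 2-fold higher and 10.1% 2-fold lower. In Tom-, 0 of 7 were 2-fold higher and 2 of 7 lower, beside 11.9% and 9.22% of 10019 genes. The median log2 ratio of the 7 members was -0.16 in Tom+ and -0.08 in Tom-, and that of all these genes 0.11 and 0.14.

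Ndn and Peg3, both paternally expressed, were the 2 genes lower in mesothelial cells of each library. The log2 ratio of Ndn was -2.77 (-3.04 to -2.50) in Tom+ and -2.40 (-2.50 to -2.31) in Tom-, and 3.27% and 3.67% of genes were lower still. For Peg3 it was -2.52 (-2.92 to -2.14) and -1.86 (-2.07 to -1.66). Without shared barcodes the Ndn ratios were -2.83 and -2.49, and the Peg3 ratio in Tom+ fell further, to -3.72 (-4.73 to -2.88), with Peg3 at 4.96 CPM from 11 UMIs in 150 Tom+ mesothelial cells.

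Plagl1 and Zrsr1, also paternally expressed, had the opposite sign. The log2 ratio of Zrsr1 was 1.04 (0.78 to 1.29) in Tom+ and 0.86 (0.71 to 1.003) in Tom-, and 1.08 and 0.83 without shared barcodes. That of Plagl1 was 1.85 (1.41 to 2.27) in Tom+ and 0.93 (0.75 to 1.12) in Tom-. Without shared barcodes the Tom+ value of Plagl1 was 0.98 (0.18 to 1.68), from 18 UMIs, which is under 2-fold and close to that of Tom-.

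Meg3 was higher in mesothelial than stromal cells of Tom+, by a log2 ratio of 0.79 (0.73 to 0.85), or 0.53 (0.43 to 0.62) without shared barcodes, and nearly equal in Tom-, at -0.08 (-0.11 to -0.06). The Meg3 level in mesothelial cells of the libraries was close, and it was the Tom+ stromal level that was low. Mest was at -0.88 (-1.36 to -0.43) in Tom+ and -0.13 (-0.32 to 0.06) in Tom-, and the Tom+ value was -2.79 (-4.42 to -1.56) without shared barcodes, from 5 UMIs. Grb10 was at -0.16 (-0.33 to 0.00) and 0.03 (-0.05 to 0.11), and at -0.56 (-0.85 to -0.29) in Tom+ without shared barcodes. Of the 5 paternally expressed genes, 3 were thus lower and 2 higher in mesothelial cells of both libraries, with the interval of Mest in Tom- spanning 0. Of all genes at the 5 CPM limit, 57.2% in Tom+ and 61.1% in Tom- were higher in mesothelial cells. With median-of-ratios scaling each Tom+ value would be 0.18 lower and each Tom- value 0.15 lower. Grb10 in Tom- then turns to -0.11, and no other sign changes among the 7 members. In Tom+, Zrsr1 comes to 0.86, under 2-fold, and Mest to -1.05, past 2-fold.

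**Figure D2:**
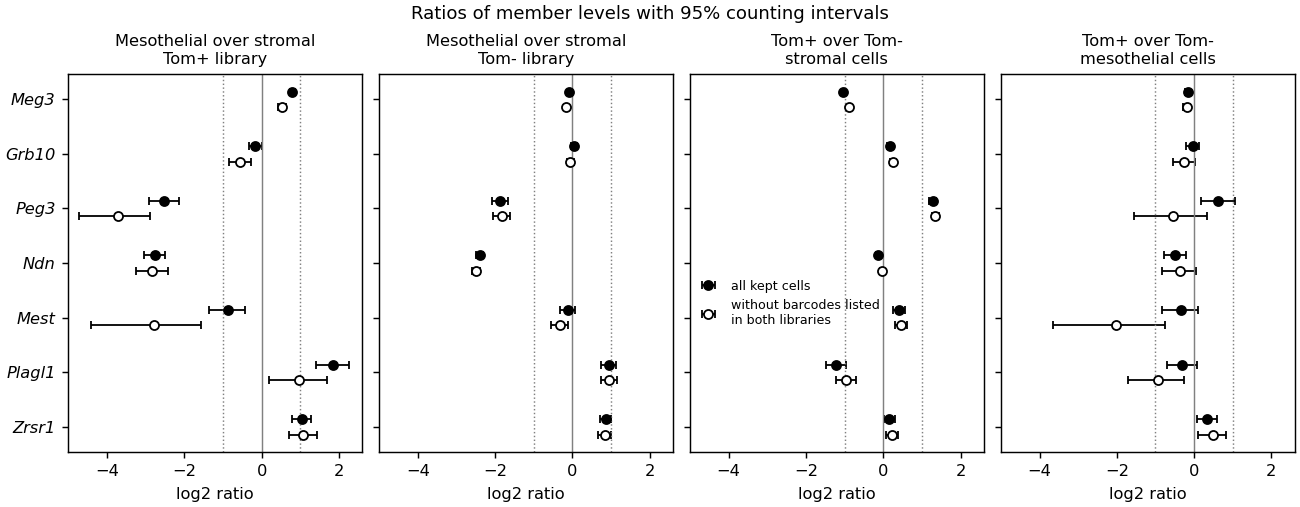
Log2 ratios of 7 members in 4 comparisons with 95% counting intervals, for all kept cells (filled) and without barcodes listed in both libraries (open), with dotted lines at a 2-fold difference. Ndn and Peg3 lie left of the lower dotted line in mesothelial against stromal cells, and the points that move most without shared barcodes are those of the 250 Tom+ mesothelial cells.

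Stromal cells sorted as Tom+ were then set against those sorted as Tom-. The members were chosen with their levels in these libraries known, so the shares of all genes given beside them are no test. Of the 7 members, 1 was at least 2-fold higher and 2 at least 2-fold lower in Tom+ stromal cells, beside 0.869% and 0.982% of 9778 genes. Peg3 was the higher one, with a log2 ratio of 1.28 (1.19 to 1.37), above 99.5% of genes. Meg3 was at -1.04 (-1.07 to -1.01) and Plagl1 at -1.22 (-1.49 to -0.97), and 0.849% and 0.501% of genes were lower than these. Mest was at 0.40 (0.25 to 0.55), Grb10 at 0.16 (0.10 to 0.23), Zrsr1 at 0.16 (0.01 to 0.31) and Ndn at -0.14 (-0.18 to -0.09), and the median of all genes was 0.07.

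Without shared barcodes the Peg3 ratio was 1.35, the Meg3 ratio -0.88 and the Plagl1 ratio -0.96, so that the last 2 fell short of 2-fold, and in Pdgfra-positive Ptprc-negative stromal cells Meg3 was at -0.96. Jchain, an immunoglobulin chain, was also higher in Tom+ stromal cells, at 1577 against 825 CPM. Ptprc, the gene of CD45, had a UMI in 4.20% of Tom+ and 1.54% of Tom- stromal cells.

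In mesothelial cells, 0 of 7 members were 2-fold higher and 0 were 2-fold lower in Tom+, where 0.689% and 0.34% of 10014 genes were. Peg3 was at 0.62 (0.18 to 1.05), but at -0.54 (-1.57 to 0.33) without shared barcodes, so its sign rested on them. Ndn was at -0.50 (-0.79 to -0.22), Zrsr1 at 0.34 (0.08 to 0.59) and Meg3 at -0.17 (-0.23 to -0.11), with -0.38, 0.48 and -0.19 without shared barcodes. The intervals of Plagl1, Grb10 and Mest spanned 0. Without shared barcodes Grb10 was at -0.26 (-0.55 to 0.02), Mest was at -2.01 (-3.65 to -0.77) and Plagl1 at -0.93 (-1.70 to -0.25), the last 2 from 5 and 18 Tom+ UMIs.

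Stromal cells are not one population, so the members were also read in stromal clusters, which were found from variable genes that left out every imprinted gene listed. Of 11 clusters, 6 had at least 50 cells in both libraries and were used. Cluster 1 was led by Ccl11, Hsd11b1 and Thbd, cluster 2 by Scg3, Mmp11 and Aspn, and cluster 3 by Cpxm2, Mfap4 and Cilp. Cluster 4 was led by Efhd1, Krtdap and Dact2, with Pi16 among its leading genes, cluster 5 by P2ry1 and Vtn, and cluster 6 by Pi15, Ptgds and Eln. Cluster 2 held 1085 Tom+ and 288 Tom- cells, whereas clusters 1, 3 and 5 held mostly Tom- cells. Clusters 8 and 10 were led by immunoglobulin genes, cluster 9 by Lyz2 and C1qa and cluster 11 by Mcpt4 and Tpsb2. These immune clusters, of 109, 73, 98 and 25 cells, count in the levels and ratios of all stromal cells. Clusters 8, 10, 9 and 11 held 76, 57, 34 and 16 Tom+ cells and 33, 16, 64 and 9 Tom- cells, so their weight differs between the libraries. Ndn, for example, was at 48.7 CPM in cluster 8 and lower in the other immune clusters, with both libraries summed.

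Over these 6 clusters the members fell into an even and an uneven set. Zrsr1, Ndn and Grb10 varied by 1.19-fold, 1.38-fold and 1.82-fold from the lowest to the highest cluster, with both libraries summed. Plagl1 varied by 18.2-fold, Peg3 by 11.5-fold, Meg3 by 6.04-fold and Mest by 5.58-fold. The evenness of Ndn depended on which clusters were compared. With a coarser division, in which 4 clusters had enough cells in both libraries, Ndn ranged from 22.3 to 191 CPM, or 8.58-fold, while Grb10 and Zrsr1 varied by 1.75-fold and 1.15-fold.

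Peg3 was highest in cluster 2, at 112 CPM (107 to 117) in Tom+ and 96.3 (86.7 to 107) in Tom-, and was among its 10 leading genes although it had no part in the clustering. It followed in cluster 6, at 67.1 and 71.9 CPM, and was lowest in cluster 3, at 13.7 and 8.34 CPM, with Tom- cluster 4 lower still at 7.68 CPM. Mest had a like order at its ends, with 23.4 and 21.8 CPM in cluster 2 and 6.25 and 3.57 CPM in cluster 3. Plagl1 ran the other way. It was at 25.3 and 22.1 CPM in cluster 3 and at most 5.00 CPM in the other 5 clusters of either library.

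Meg3 was high in clusters 3 and 4, at 680 and 476 CPM in Tom+ and 809 and 1024 CPM in Tom-. It was low in cluster 6, at 105 and 184 CPM, and in cluster 5, at 196 and 251 CPM. Ndn lay between 137 and 199 CPM in all 12 cluster values. RNA of Cdkn2a, the gene of p16, was not higher in Tom+ throughout. In Tom+ and Tom- it was at 3.51 and 2.55 CPM in cluster 1 and 7.17 and 2.61 CPM in cluster 6. The order was reversed in cluster 2, at 4.37 and 8.94 CPM, and in cluster 4, at 3.64 and 6.63 CPM. It was close in cluster 3, at 6.25 and 6.46 CPM, and in cluster 5, at 0.956 and 1.04 CPM.

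**Figure D3:**
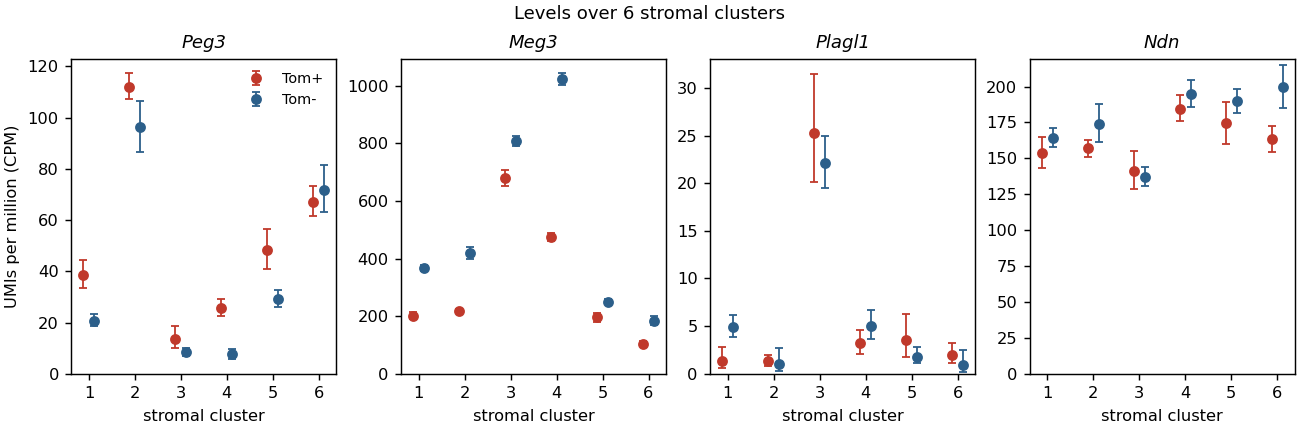
Levels of Peg3, Meg3, Plagl1 and Ndn in CPM over 6 stromal clusters in Tom+ (red) and Tom- (blue), with exact Poisson 95% intervals and axes that start at 0. Plagl1 is high only in cluster 3 of the 6, Peg3 peaks in cluster 2, Ndn is nearly even, and each red Meg3 point lies below the blue one beside it.

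Comparing the libraries within each cluster kept part of the difference. Meg3 was lower in Tom+ in 6 of 6 clusters, with log2 ratios from -1.11 in cluster 4 to -0.25 in cluster 3. Each counting interval lay below 0. This held without shared barcodes, with 6 of 6 from -1.08 to -0.14. These intervals take UMIs as independent and are too narrow for Meg3. With cells thinned to equal depth, 113 of 220 Tom+ cells of cluster 3 held all 1214 Meg3 UMIs, up to 110 in 1 cell. In Tom+ cluster 5, 50 of 223 such cells held all 360. Whether the small ratios of clusters 3 and 5 (-0.25 and -0.35) differ from 0 beyond the spread over cells was not tested. The Peg3 intervals rest on the same assumption. Peg3 was higher in Tom+ in 5 of 6 clusters, each of the 5 intervals above 0, from 0.22 in cluster 2 to 1.75 in cluster 4, and was at -0.10 (-0.32 to 0.13) in cluster 6. Without shared barcodes 5 of 6 were again higher. With CPM averaged over the 6 clusters in each library, the log2 ratio of the means was -0.70 for Meg3 and 0.38 for Peg3. Clusters of high level weigh most in these values. The median of the 6 cluster ratios was -0.84 for Meg3 and 0.72 for Peg3. By either measure the Peg3 difference was smaller than over all stromal cells.

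Plagl1 did not keep its library difference. It was higher in Tom+ in 4 clusters and lower in 2, and only the value of -1.84 in cluster 1 had an interval off 0. The ratio of the mean cluster levels was 0.04, set mostly by cluster 3, and the median of the cluster ratios was 0.25. In cluster 3, which held most Plagl1 UMIs, the ratio was 0.19 (-0.18 to 0.56), and this cluster held 261 Tom+ and 1058 Tom- cells. Mest went in both directions, from -0.83 in cluster 5 to 0.81 in cluster 3. Zrsr1 was higher in 6 of 6 clusters, but with 1 interval above 0. Grb10 was higher in 5 of 6, from -0.11 to 0.36, with 3 intervals above 0. Ndn was lower in 5 of 6, between -0.29 and 0.04, with 2 intervals below 0. Shares over all genes were not read within clusters. Over all stromal cells 60.5% of genes at the 5 CPM limit were higher in Tom+.

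How a level arose over single cells was read after each cell was thinned to 7461 UMIs, the 10th percentile of kept cells, which left out 264 Tom+ and 628 Tom- stromal cells that were shallower. In the 6 clusters this gave 2826 Tom+ and 3995 Tom- cells. This reading was chosen after the values were seen. If every cell had the same chance to yield a gene's UMIs, the share of cells with at least 1 would follow from the mean by the Poisson formula.

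Meg3 was far from that. Its mean was 2.15 UMIs per cell in Tom+ and 3.96 in Tom-, from which Poisson counts would give a UMI in 88.3% and 98.1% of cells, but 29.6% (27.9 to 31.3) and 48.1% (46.6 to 49.7) had one. Cells with a Meg3 UMI had 7.26 of them on average in Tom+ and 8.23 in Tom-, and up to 110 and 104 in 1 cell. At least 10 were found in 6.65% and 13.4% of cells, so cells with no Meg3 UMI and cells with over 10 stood side by side at the same depth. In clusters taken singly the pattern remained, for example 45.2% of Tom+ and 73.4% of Tom- cells of cluster 4, where Poisson counts would give 96.9% and 99.9%. Without shared barcodes the shares were 29.9% and 48.02%, and over all stromal cells 29.1% and 48.3% when thinned and 32.2% and 51.25% when not.

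Mesothelial cells also fell short of the Poisson share, with 52.6% (46.2 to 59.0) of Tom+ and 56.2% (53.9 to 58.5) of Tom- cells positive where Poisson counts would give 96.3% and 97.0%. Without shared barcodes 48.6% of Tom+ and 54.4% of Tom- mesothelial cells were positive. As a measure of free RNA, the immunoglobulin-rich cluster 10 was read in the same way. Meg3 had a UMI in 0 of its 56 thinned Tom+ cells, so that a share up to 6.38% cannot be told from it. In Tom- it had one in 0 of 16 cells, where the upper limit is 20.6%. Median depths before thinning were 36809 and 29519 UMIs in cluster 10 and 14235 and 11270 in stromal cells. Cluster 8, also led by immunoglobulin genes, was not used for this measure. Its Meg3 level was 74.3 CPM in 76 Tom+ cells and 184 CPM in 33 Tom- cells.

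Ndn gave the contrast. Its mean was 1.22 and 1.30 UMIs per cell, and 66.0% and 67.2% of cells had one, beside 70.5% and 72.7% by the Poisson formula, with at most 9 in a cell. Grb10 (39.5% and 34.9%, beside 43.4% and 38.0%) and Zrsr1 (10.4% and 8.59%, beside 10.2% and 9.10%) were as close. Peg3 was between, with a UMI in 21.2% and 10.6% of cells beside 38.5% and 16.7%, and up to 15 in 1 cell. Plagl1 was found in 0.991% and 1.95% of cells beside 2.83% and 5.10%, and Mest in 8.49% and 5.58% beside 11.8% and 8.71%.

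The ratio of variance to mean (Fano factor, 1 for Poisson counts) was read as well. Since the members differ in mean, each was ranked among genes of like mean. For Meg3 it was 19.1 in Tom+ and 16.7 in Tom-, above 99.2% and 98.0% of the genes with a mean within 2-fold of its own, 783 and 407 of them. It was 3.62 and 2.50 for Peg3, above 98.8% and 98.5% of such genes. Plagl1 was at 6.85 and 5.12, above 99.5% and 99.5%, and Mest at 2.05 and 3.28, above 98.4% and 99.1%. For Ndn it was 1.30 and 1.32, above 65.8% and 62.3%. Grb10, at 1.35 and 1.34, was above 86.3% and 86.1%, and Zrsr1, at 0.978 and 1.11, above 2.98% and 79.5%. 

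**Figure D4:**
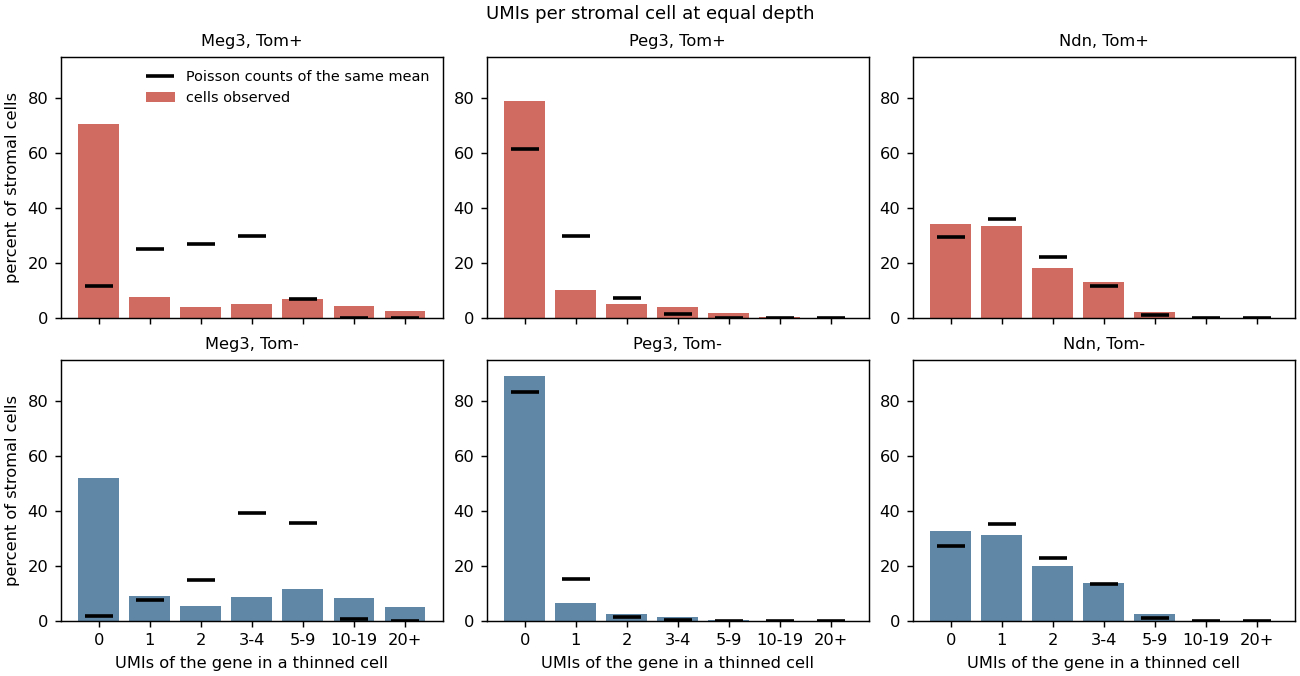
Percent of thinned stromal cells of the 6 clusters by the number of UMIs of Meg3, Peg3 and Ndn in Tom+ (upper) and Tom- (lower), as bars, with black marks for Poisson counts of the same mean. Cells without Meg3 make up 70.4% and 51.9%, where Poisson counts would give 11.7% and 1.90%, while Ndn bars lie near their marks.

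Neighbours in the same imprinted domain were then set beside Meg3 and Peg3, cell by cell. Mirg, a maternally expressed microRNA host downstream of Meg3, had a UMI in 4.55% (3.24 to 6.19) of Meg3-positive and 0.251% (0.0816 to 0.585) of Meg3-negative Tom+ stromal cells. In Tom- these were 5.15% (4.21 to 6.24) and 0.0965% (0.0117 to 0.348), or 99 of 1922 and 2 of 2073 cells. The order was the same in each of the 6 clusters of both libraries, and in mesothelial cells, at 3.57% and 0.383% in Tom-. Dio3, the paternally expressed deiodinase gene of the domain, was not split this way, at 1.20% and 1.21% in Tom+ and 2.91% and 3.81% in Tom-. Between the libraries, the log2 ratio over stromal cells was -1.19 for Mirg and -1.75 for Dio3, both under 5 CPM. Dio3 was lower in Tom+ in 6 of 6 clusters, with 2 intervals below 0. Mirg was lower in 5 of 6, with 1 interval below 0, so few UMIs limit these cluster values.

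Zim1, the maternally expressed neighbour of Peg3, had a UMI in 11.5% (9.07 to 14.4) of Peg3-positive and 1.39% (0.948 to 1.97) of Peg3-negative Tom+ stromal cells, and in 5.44% (3.48 to 8.05) and 0.308% (0.154 to 0.550) in Tom-. Within clusters the share was higher in Peg3-positive cells in 5 of 6 in each library, and not in cluster 3, where Zim1 was at or near 0. It was highest where Peg3 was, with 12.7 and 12.1 CPM in cluster 2. It was higher in Tom+ in 5 of 6 clusters, with 3 intervals above 0. Of pairs of members, Mest had a UMI in 11.4% of Peg3-positive and 7.72% of Peg3-negative Tom+ cells and in 11.1% and 4.93% in Tom-. By Grb10 the Mest shares were 10.7% and 7.08% in Tom+ and 7.02% and 4.81% in Tom-. Pairs of members were not read within clusters, and Peg3 and Mest were both highest in cluster 2. Ndn did not follow Meg3, with 67.2% and 65.4% of Meg3-positive and Meg3-negative cells in Tom+ and 66.9% and 67.5% in Tom-.

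The genes most like each member were sought over the 16 clusters by library with at least 50 cells, by Pearson correlation of log2(CPM + 1) among 9947 genes. These are descriptions over points that share 2 libraries and include immune clusters. For Meg3 they were Igfbp6 (0.97), Efemp1 (0.97) and Magi3 (0.97), for Peg3 Hbp1 (0.95), Fabp4 (0.93) and Uhrf2 (0.93), and for Plagl1 Tango6 (0.92), Hps4 (0.88) and Mylip (0.88). For Ndn they were Nsg1, Lpar1 and Steap3, each at 0.99, for Grb10 Ddhd2, Dpysl2 and Rab12, each at 0.99, for Mest Fam45a, Setdb2 and Reep4 (0.94, 0.94 and 0.94), and for Zrsr1 Tox4, Kdm5a and U2surp (0.96, 0.95 and 0.95). H19 was too low for this. Over the 12 values of the 6 main clusters alone, no gene named here recurred among the 3 most like its member. There they were Srgn (0.94), Csrp2 (0.92) and Ptgs1 (0.91) for Meg3 and Arhgap39, Timm10 and Rnf24 (each at 0.96) for Peg3.

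Of the other 56 genes listed as imprinted, 27 in Tom+ and 28 in Tom- had a mean of at least 5 CPM between mesothelial and stromal cells. In Tom+, 5 were 2-fold higher and 3 lower in mesothelial cells, and in Tom- 6 and 2. Over all genes these shares were 13.1% and 10.1% in Tom+ and 11.9% and 9.22% in Tom-. Cobl, an actin nucleator, was at 69.3 CPM in Tom+ mesothelial and 0.626 CPM in stromal cells, and at 58.9 and 0.639 CPM in Tom-. Zdbf2, a zinc finger gene, was at 34.4 and 0.607 CPM in Tom+ and 33.7 and 2.23 CPM in Tom-, and Gatm, which makes a creatine precursor, at 30.8 and 6.38 CPM and 38.6 and 18.2 CPM. In the other direction, the cell cycle inhibitor Cdkn1c was at 51.5 and 157 CPM in Tom+ and 63.1 and 173 CPM in Tom-, a log2 ratio of -1.61 and -1.45. Tfpi2 was at -1.75 and -2.41 and Igf2r at -1.42 and -0.79. In Tom- alone, Inpp5f (1.38) and Dcn (-0.98) lay further out than Gatm and Igf2r. Median ratios over these genes were -0.05 and 0.01.

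Between Tom+ and Tom- stromal cells, 0 of 26 of these genes were 2-fold higher and 1 was lower, Gatm at -1.51, beside 0.869% and 0.982% of all genes. Their median was -0.03. In mesothelial cells 0 of 26 passed 2-fold in either direction. Below 5 CPM, Zim1 was at 1.79 and Zdbf2 at -1.88 in stromal cells.

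tdTomato RNA itself was used to split the cells of each library. In Tom+ stromal cells of the 6 clusters, 457 thinned cells with a tdTomato UMI were compared with 2369 without. Meg3 was at 353 CPM in the former and 275 CPM in the latter, a log2 ratio of 0.36 (0.26 to 0.45). This split is also one by cluster, since a tdTomato UMI was found in 12.7% of Tom+ cells in cluster 4 but 23.8% in cluster 5. Within clusters, which was looked at after seeing the data, Meg3 was higher with tdTomato in 4 and lower in 2 of 6 in Tom+, from -0.24 to 1.03. There 3 intervals lay above 0 and 0 below. In Tom- the ratio over all 6 clusters was -0.07 (-0.15 to 0.01), with 352 cells against 3643, and within clusters it was higher in 3 and lower in 3, from -0.81 to 1.31. Of these Tom- intervals 3 lay above 0 and 2 below. The cluster intervals of both libraries take UMIs as independent and are too narrow for Meg3. Peg3 was at -0.12 (-0.34 to 0.09) in Tom+ and -0.21 (-0.63 to 0.18) in Tom-.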

How the data were processed

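Cells of 2 sorted fractions of gWAT were profiled by droplet sequencing, 1 library each. The deposited matrices hold raw UMI counts per gene and cell barcode, which per the labels were made with the 10x Chromium Single Cell 3' kit v3.1 and Cell Ranger 3.0.2 on mm10. All else was computed from those counts. Barcodes with over 1000 and under 7000 genes and under 8% mitochondrial UMIs were kept, with no doublet caller and no removal of free RNA. Totals were 61119807 UMIs in 5566 Tom+ barcodes and 96872394 in 11838 Tom- barcodes, with medians of 14392.5 and 11910 UMIs in kept cells. UMIs were summed per library and class and scaled to 1000000 (CPM). Counts of members use a limit of 5 CPM on the mean level and a 2-fold difference. Shares use cells thinned to 7461 UMIs.

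Stromal cells were clustered (Leiden, resolution 0.5, 2000 variable genes without imprinted genes, 30 components, scanpy 1.11.5), and clusters are called by number and leading genes. Named genes are the 8 members, up to 3 other imprinted genes per direction with the largest log2 ratio in a comparison, and the 3 genes most like each member. Mirg, Dio3, Zim1 and the genes in H19-positive barcodes were chosen after their values were seen. The members and lists were chosen with earlier results of these data known. Alternatives covered scaling, cell weights, filters, gates and shared barcodes, and scripts were tested on simulated data (Python 3.11.15, numpy 2.4.6, scipy 1.17.1). The simulated counts for the ratio intervals were drawn as Poisson. They do not test these intervals where a few cells hold most UMIs of a gene.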

Additional observations from a re-analysis of the deposited data

Results flagged for a closer look

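Barcodes left out of the comparisons also held imprinted transcripts. The 8 members together were at 1213 CPM in the 11 Tom+ barcodes and 438 CPM in the 30 Tom- barcodes with 5 to 9 mesothelial marker UMIs. In barcodes with no more than 1000 genes the Tom+ sum was 675 CPM and the Tom- sum 1157 CPM.

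H19, which was under 0.5 CPM in all 4 groups of kept cells, was at 29.4 CPM (21.7 to 38.8) in the 1892 low-gene Tom+ barcodes and at 97.9 CPM (88.2 to 108) in the 4969 low-gene Tom- barcodes. It came from 49 UMIs in 38 Tom+ barcodes and 375 UMIs in 257 Tom- barcodes, with at most 6 in 1 barcode. In Tom+ all 49 lay in barcodes listed in both libraries, with 0 UMIs in the other 214 low-gene barcodes, whereas in Tom- H19 was at 144 CPM in barcodes of that library alone and 42.4 CPM in shared ones. The 295 low-gene barcodes with H19 held more Sfrp2 (2847 against 609 CPM), Itm2a (1049 against 158), Ptn (466 against 41.9) and Plagl1 (131 against 26.4) than the 6566 without it. The stromal marker Col1a1 was also higher there, at 22340 against 7917 CPM. So were Meg3 (1802 against 631) and Cdkn1c (223 against 54.8), while the mesothelial Msln was at 24.3 against 117 CPM. Pecam1 was at 24.3 against 78.2 CPM and Ptprc at 4.86 against 25.3 CPM, and these genes were chosen after their values were seen.

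Plagl1 in cells with a tdTomato UMI over cells without one had opposite signs in the 2 libraries. The log2 ratio was 1.68 in Tom+ and -2.73 in Tom- stromal cells, and -2.12 in Tom+ and 1.05 in Tom- mesothelial cells. Few cells lay behind these values, 6 of 457 with Plagl1 among tdTomato-positive Tom+ stromal cells (31 UMIs, up to 13 in 1 cell) and 3 of 352 in Tom- (3 UMIs). Cells with and without tdTomato were spread differently over clusters, and Plagl1 lay mostly in cluster 3. Within cluster 3 the ratio was 0.84 (-0.22 to 1.83) in Tom+, from 14 and 26 UMIs, and -2.56 (-5.63 to -0.68) in Tom-, from 2 and 131 UMIs. In Tom+ cluster 4, all 14 Plagl1 UMIs lay in only 2 of 558 thinned cells, both with tdTomato. These within-cluster values were chosen after seeing the data, the mesothelial values include shared barcodes, and the difference between libraries was not tested.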

How the results depend on the processing

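With 1 library per group, no library could be left out. No paired analysis was possible because each sorted fraction had 1 library. Among ratios of single members whose interval lay off 0, 3 turned in sign, all between the libraries in mesothelial cells. Grb10 and H19, with intervals that spanned 0, also changed sign under some settings, for example Grb10 in Tom- mesothelial against stromal cells, from 0.03 to between -0.29 and -0.00497 in 6 of them. Peg3 went to -0.54 without shared barcodes and to -0.86 with only mesothelial cells under 10 stromal marker UMIs, where Meg3 went to 0.70, but that setting left 10 Tom+ and 192 Tom- cells. Counts of members past 2-fold moved as follows. In Tom+ mesothelial against stromal cells, 1 in place of 2 were higher under median-of-ratios scaling, a mean over cells, a stricter gate, without the cells of most UMIs, without shared barcodes and with Pdgfra-positive Ptprc-negative stromal cells. In the same comparison Mest joined Ndn and Peg3 past 2-fold lower under some settings. It was at -1.05 with median-of-ratios scaling and at -2.79 without shared barcodes. In Tom-, 1 in place of 0 was higher with under 5% mitochondrial UMIs and 2 with under 10 stromal marker UMIs. Between libraries in stromal cells, 0 in place of 2 were lower with a mean over cells or without shared barcodes, and 1 without the cells of most UMIs or with Pdgfra-positive cells. In mesothelial cells, 1 in place of 0 was lower without shared barcodes and with under 10 stromal marker UMIs. The cause was not tested. The readings within clusters and over cells without shared barcodes were chosen after seeing the data, and Meg3 stayed lower in 6 and Peg3 higher in 5 of 6 clusters. Counts of under 20 UMIs, as for Peg3, Mest and Plagl1 in Tom+ mesothelial cells without shared barcodes, limit the precision.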

Other observations

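A small cluster among the cells called stromal, cluster 7, was led by Clu, Nxph1 and Calca and held 26 Tom+ and 171 Tom- cells. Over both libraries its levels were 24.5 CPM for Ndn, 9.80 CPM for Peg3, 21.6 CPM for Plagl1, 593 CPM for Meg3 and 0.490 CPM for Mest. The Ndn levels of mesothelial cells were 21.6 CPM (Tom+) and 30.5 CPM (Tom-), and in the 6 main stromal clusters it was at 138 CPM or above. Mest was lower in cluster 7 than in any of the 6, the lowest of which was at 4.15 CPM. Its value in cluster 7 rests on 0 UMIs in Tom+ and 1 UMI in Tom-, with intervals that reach 12.5 and 3.19 CPM.

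Across the 12 values of the 6 clusters by library, Peg3 was inversely related to Meg3 (Pearson correlation of log2(CPM + 1) of -0.79) and to Plagl1 (-0.80). Over single cells of all 6 clusters together, Meg3 had a UMI in 29.9% of Peg3-positive and 29.5% of Peg3-negative Tom+ cells, and in 40.7% and 49.0% of Tom- cells.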
